A study of Caenorhabditis elegans with 5 samples.

Results

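Fatty acid activation, oxidation and elongation, lipid binding and lipid hydrolysis were followed through 8 gene families in whole *Caenorhabditis elegans* worms that had been cultured in space flight, under clinorotation, in hypergravity or at 1 G on the ground. The members were chosen by symbol alone: every gene named *acs*, *acdh*, *ech*, *acox*, *hacd*, *lipl*, *lbp* or *elo* with a number that had a probe set to itself. They numbered 76 of the 17118 genes named on the array: 23 *acs*, 12 *acdh*, 5 *acox*, 10 *ech*, 1 *hacd*, 8 *lipl*, 9 *lbp* and 8 *elo* genes. For the 9 genes with several probe sets, the brightest on average was used. Of the 76, 56 had a mean signal above the floor of 24.9 that was set for dim probe sets, 6 passed the floor on at least 1 array but not on average, and 14 were at the floor on all 5 arrays. *acox-1.3* and *acox-1.4* share a single probe set and were left out by the rule.

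Each group was 1 array of pooled wild-type worms of the Bristol N2 strain, 100000 per group and of mixed stages, kept in liquid CeMM medium at 20 °C for 10 days. The space flight group grew in microgravity. The clinorotation group was turned so that the direction of gravity kept changing, and the hypergravity group was kept at a raised gravity, for which the labels hold both 3 G and 10 G. The 2 ground controls were kept at 1 G at different places, the operation site and Tsukuba space center. Where the clinorotated and hypergravity worms were grown is not labelled.

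As background, a fatty acid enters metabolism as a thioester with coenzyme A, made by acyl-CoA synthetases (*acs*). Beta-oxidation then shortens the chain in repeated rounds, in which acyl-CoA dehydrogenases (*acdh*, mitochondria) or acyl-CoA oxidases (*acox*, peroxisomes) take the first step, enoyl-CoA hydratases (*ech*) the next and 3-hydroxyacyl-CoA dehydrogenases (*hacd*) the one after. Elongases (*elo*) do the reverse and lengthen chains, *lbp* genes encode small intracellular or secreted lipid-binding proteins, and *lipl* genes encode lipases related to lysosomal acid lipase. In the worm these genes act mainly in intestine and epidermis, where fat is stored, and the peroxisomal oxidases also trim the side chains of ascaroside pheromones.

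The arrays differed in ways that touch every comparison. Values are signals in arbitrary units after quantile scaling and are compared within a gene, not between genes. Sperm markers read far higher in space flight and at the operation site than on the other 3 arrays, with summed signals over the 23 markers above the floor of 49455 in space flight, 10276 in clinorotation and 15549 in hypergravity, against 48379 at the operation site and 13390.5 at Tsukuba. Summed intestinal markers (15 of 16 measured genes above the floor) spanned 21615 to 24063 on the 3 treated arrays, against 23422 and 25491 in the controls, and summed epidermal markers (9 of 10) spanned 14055 to 16375 against 17368 and 18757. Muscle (11 of 11), germ line (12 of 12) and neuronal markers (8 of 10) were also above the floor. Germ line markers lay above both controls for 11 of 12 genes in space flight (median 0.41, log2), 5 in clinorotation (0.02) and 8 in hypergravity (0.34). Muscle markers lay below both for 11 of 11 in space flight (-0.52), 8 in clinorotation (-0.14) and 8 in hypergravity (-0.18). The part of these lists in the members' values was not tested. In whole worms, fewer cells of a type and less RNA per cell cannot be told apart.

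On all 3 treated arrays more members lay below both controls than above both, although the distances were small. In space flight 26 of the 76 lay below both controls (34.2%), against 17.6% of all genes, and 14 above both (18.4%), against 23.4%. In clinorotation 25 lay below (32.9%, against 16.6% of all genes) and 10 above (13.2%, against 18.1%). In hypergravity 26 lay below (34.2%, against 19.6%) and 10 above (13.2%, against 21.5%). The background is larger among genes above the floor, where 29.5%, 27.7% and 32.7% lay below both controls in space flight, clinorotation and hypergravity (36.3%, 28.4% and 33.2% above) and where 46.4%, 44.6% and 46.4% of the 56 members did. The median difference of those 56 from the control mean was -0.10 in space flight, -0.08 in clinorotation and -0.16 in hypergravity (log2), against 0.03, 0.01 and 0.0013 for all genes above the floor. Over all 76 members, those at the floor included, the medians were -0.00092, -0.02 and -0.03.

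**Figure D1:**
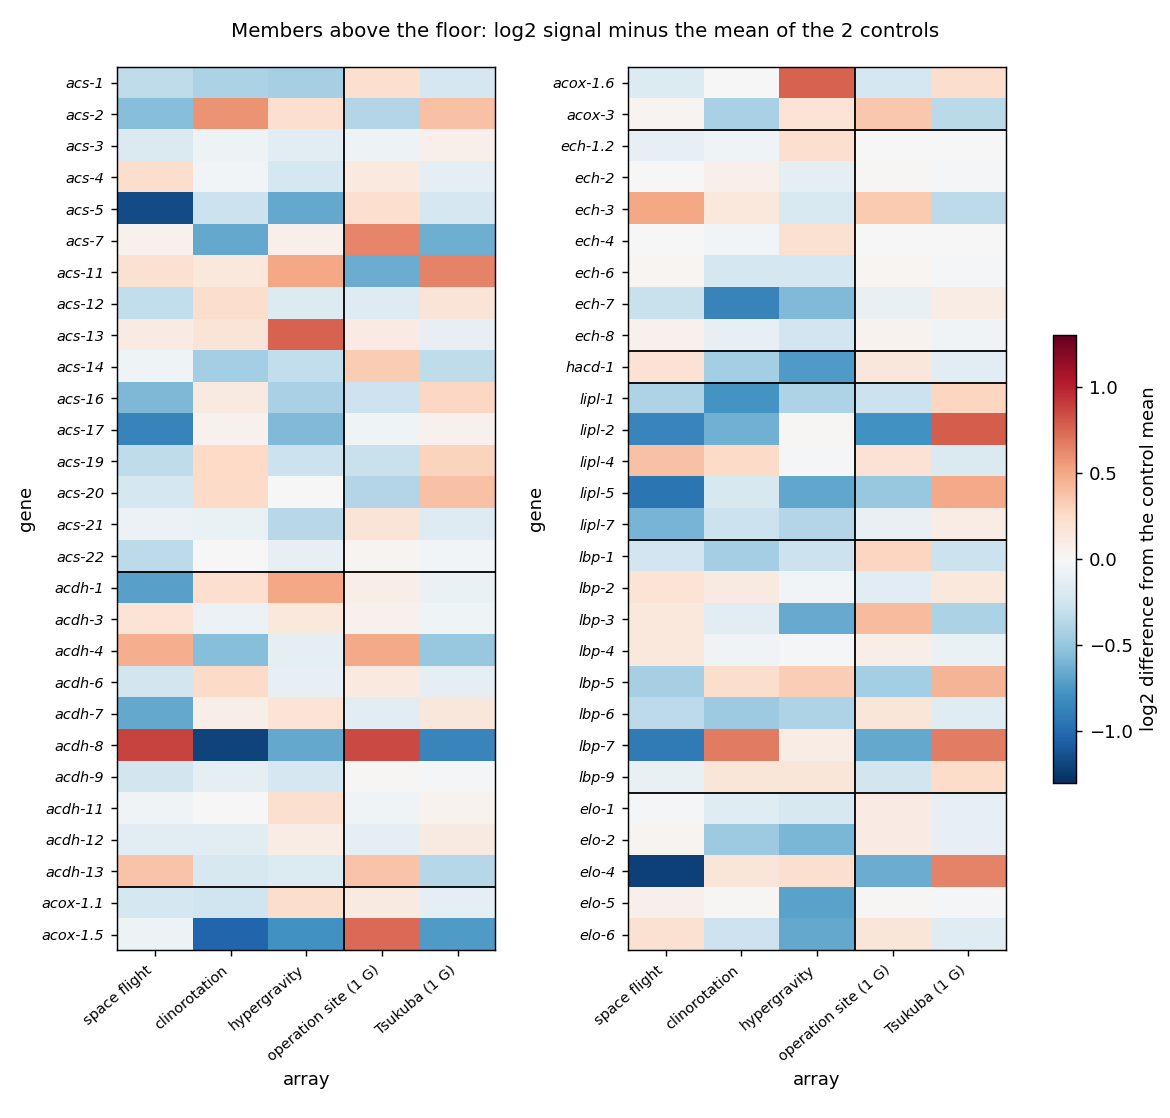
Log2 signal of the 56 members above the floor minus the mean of both controls, with genes in rows (grouped by family, black lines) and the 5 arrays in columns, 1 array each. Blue is lower and red higher than the control mean, and the vertical line separates the treated arrays from the controls, whose opposite colours show how far the controls differ from each other.

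None of the 76 members lay 2-fold or more outside both controls on any treated array, against 0.415% of all genes in space flight, 0.0876% in clinorotation and 0.555% in hypergravity. At 1.5-fold, a threshold chosen after the values were seen, there were 3 members below both controls in space flight (*acs-5*, *acs-17* and *acdh-1*; 2% of all genes), 1 below in clinorotation (*ech-7*; 0.748%), 2 below in hypergravity (*elo-5* and *hacd-1*; 2.52%) and 1 above in hypergravity (*acs-13*; 1.68%). None lay 1.5-fold above both in space flight (1.09%) or clinorotation (0.666%). With limma no member reached an adjusted p below 0.05 in any condition, and neither did any other of the 10075 genes above the floor. At an unadjusted p under 0.05, limma gave 2 members in space flight (1.43% of genes above the floor), 0 in clinorotation (0.318%) and 4 in hypergravity (2.46%). Each condition has 1 array and the only replicates are controls from different sites, so an exact permutation test of 1 array against 2 could not go below p = 0.333.

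The deposited arrays differed in brightness, and the lower values hold relative to all genes on the array. Without scaling, the median of genes above the floor was 0.62 above the control mean in space flight, 0.29 in clinorotation and 0.39 in hypergravity (log2). Of the 26 members below both controls in space flight, 4 were still below both without scaling, 7 were no longer outside and 15 lay above both. The 4 were *acs-5* (-0.21 from the nearer control), *acs-17* (-0.20), *elo-4* (-0.08) and *acdh-1* (-0.0076), the last nearly level. Of the 25 in clinorotation, 5 were still below and 9 lay above. The 5 were *ech-7* (-0.52), *lipl-1* (-0.25), *acdh-8* (-0.11), *hacd-1* (-0.04) and *lbp-6* (-0.01). Of the 26 in hypergravity, 5 were still below and 9 lay above. The 5 were *elo-5* (-0.26), *hacd-1* (-0.20), *ech-7* (-0.17), *acs-17* (-0.14) and *elo-6* (-0.08).

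Among the acyl-CoA synthetases, *acs-5* and *acs-17* were the members farthest below the controls in space flight. The only probe set of *acs-5* is of a kind that can detect more than 1 transcript, and 23 of the 76 members rest on such a probe set. *acs-5* read 233 in space flight, 432 in clinorotation and 330.3 in hypergravity, against 606 at the operation site and 451 at Tsukuba. It was lower on all 3 treated arrays than in either control, with a distance to the nearer control of -0.95 (log2) in space flight, -0.45 in hypergravity and -0.06 in clinorotation. The difference from the control mean in space flight was -1.17 ± 0.30 (log2, SE, limma), with an unadjusted p of 0.024 and an adjusted p of 0.970. *acs-17* read 287 in space flight, 544 in clinorotation and 351 in hypergravity, against 505 at the operation site and 542 at Tsukuba. Space flight and hypergravity lay below both controls and clinorotation level with them. The controls of *acs-17* differed little (SD 0.07, log2, n = 2), and its difference in space flight was -0.87 ± 0.23 (SE, limma; unadjusted p = 0.025, adjusted p = 0.970). A second probe set of *acs-17* read 237 in space flight, 386 in clinorotation and 305 in hypergravity, against 337 at the operation site and 455 at Tsukuba, again with space flight lowest. In space flight 7 of 10 epidermal and 11 of 11 muscle markers also lay below both controls, with medians over all of them of -0.43 and -0.52, and their part in the result was not tested.

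On the probe sets used, *acs-13* was the only synthetase above both controls in hypergravity. It read 558 in space flight, 585 in clinorotation and 885 in hypergravity, against 562 at the operation site and 482 at Tsukuba, a distance of 0.66 to the nearer control and a difference of 0.77 ± 0.23 from their mean (log2, SE, limma; unadjusted p = 0.036, adjusted p = 0.949). A second probe set did not show this, at 307 in space flight, 398 in clinorotation and 389 in hypergravity, against 484 at the operation site and 279 at Tsukuba. *acs-4* also had probe sets that disagreed in hypergravity, one at 690 against 878 at the operation site and 740 at Tsukuba and the other at 684 against 537 at the operation site and 495 at Tsukuba, so that the first lay below both and the second above both.

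*acs-2*, a mitochondrial synthetase that fasting induces through the nuclear receptor NHR-49, read 1453 in space flight, 3188 in clinorotation and 2474 in hypergravity, against 1632 at the operation site and 2769 at Tsukuba. Clinorotation was the highest array and space flight the lowest, and the controls themselves differed by -0.76 (log2, operation site minus Tsukuba). Its second probe set read 680 in space flight, 1177 in clinorotation and 1042 in hypergravity, against 590.3 at the operation site and 918 at Tsukuba. There clinorotation was again highest, but hypergravity also lay above both controls and space flight between them. *acs-1*, which activates monomethyl branched-chain fatty acids, read 209 in space flight, 197 in clinorotation and 194 in hypergravity, against 304 at the operation site and 226 at Tsukuba. All 3 treated arrays were below both controls, on this probe set and on a second one, where space flight read 160.0, clinorotation 181 and hypergravity 152, against 188 at the operation site and 210.3 at Tsukuba.

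*acs-20* and *acs-22*, which are needed for the barrier function of the cuticle, differed in pattern. *acs-22* read 278 in space flight, 351 in clinorotation and 326 in hypergravity, against 361 at the operation site and 344 at Tsukuba, with space flight lowest. On its brighter probe set, *acs-20* lay between the controls on all 3 treated arrays, at 119 in space flight, 166 in clinorotation and 139 in hypergravity, against 107 at the operation site and 181 at Tsukuba. On a second, clinorotation lay above both, at 78.8 against 39.3 at the operation site and 69.8 at Tsukuba. Space flight (41.0) and hypergravity (58.8) were again between the controls there. *acs-7*, which acts in peroxisomes in the making of ascarosides, was the synthetase highest at the operation site relative to Tsukuba, and read 67.0 in space flight, 40.8 in clinorotation and 67.8 in hypergravity, against 99.9 at the operation site and 41.7 at Tsukuba. *acs-11* ran the other way between the controls, at 97.1 in space flight, 93.4 in clinorotation and 120.4 in hypergravity, against 54.2 at the operation site and 133 at Tsukuba, and no treated array was outside them.

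The remaining synthetases above the floor lay within 0.32 (log2) of the nearer control. In space flight, *acs-16* read 46.0 against 57.3 at the operation site and 82.8 at Tsukuba. There *acs-12* read 254 against 283 at the operation site and 355 at Tsukuba, and *acs-3* read 73.0 against 79 at the operation site and 87 at Tsukuba. All 3 were below both controls, *acs-16* at -0.32 from the nearer one, *acs-12* at -0.16 and *acs-3* at -0.11. *acs-14*, *acs-19* and *acs-21* were within 0.19 of the nearer control or between the controls on every treated array. *acs-6*, *acs-10* and *acs-18* passed the floor on 1 or 2 arrays, and *acs-15*, *acs-23*, *acs-24* and *acs-25* were at the floor on all 5. Over the 23 synthetases, 9 lay below both controls in space flight, 4 in clinorotation and 9 in hypergravity, against 2, 4 and 1 above both. The shares of all genes were 17.6%, 16.6% and 19.6% below and 23.4%, 18.1% and 21.5% above, so the clinorotation counts lay near the background.

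**Figure D2:**
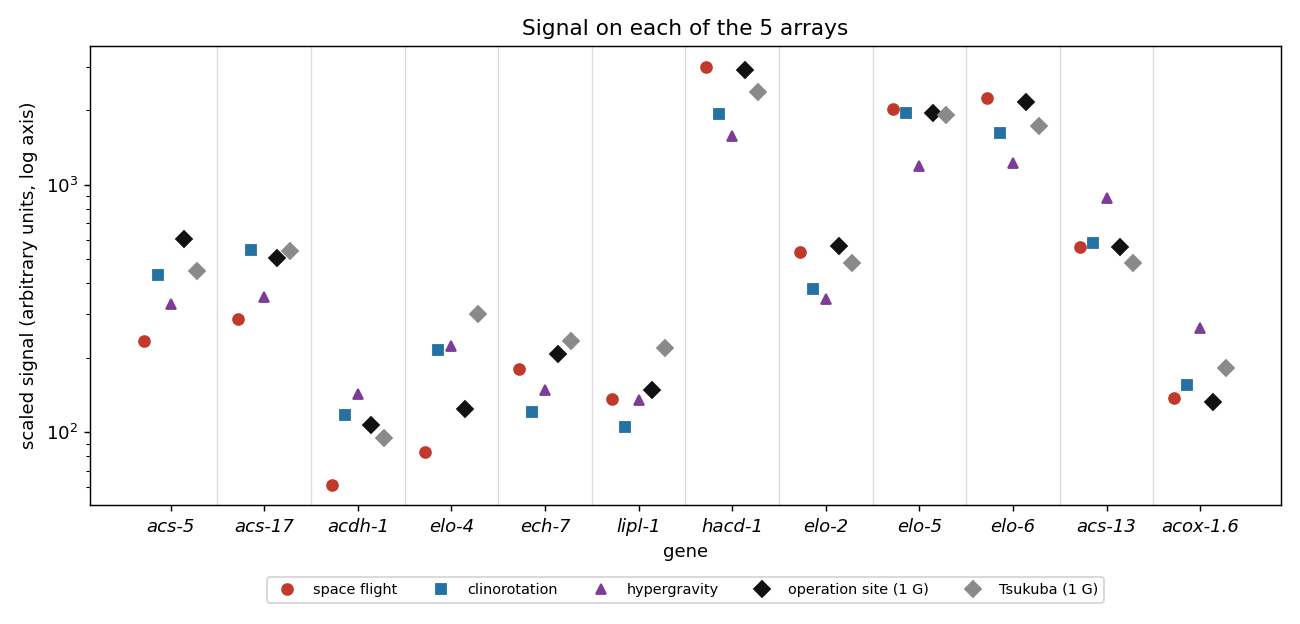
Scaled signal on a log axis of 12 members on the 5 arrays, 1 point per array, with treated arrays to the left of the controls within each gene. Space flight is lowest for *acs-5*, *acs-17*, *acdh-1* and *elo-4*, clinorotation for *ech-7* and *lipl-1*, and hypergravity for *hacd-1*, *elo-2*, *elo-5* and *elo-6*, while hypergravity is highest for *acs-13* and *acox-1.6*. Heights are to be compared within a gene.

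Among the lipid-binding protein genes, only *lbp-6* lay below both controls on all 3 treated arrays. *lbp-6* read 1557 in space flight, 1417 in clinorotation and 1491 in hypergravity, against 2201 at the operation site and 1762 at Tsukuba. The distance to the nearer control was -0.18 in space flight, -0.31 in clinorotation and -0.24 in hypergravity (log2), with a control SD of 0.23 (n = 2). Without scaling, the distance was 0.05 in space flight, -0.01 in clinorotation and 0 in hypergravity.

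*lbp-7* and *lbp-5* followed the split between the arrays. *lbp-7* read 47.8 in space flight, 145 in clinorotation and 97.1 in hypergravity, against 57.0 at the operation site and 144 at Tsukuba, low in space flight and at the operation site and high on the other 3 arrays. *lbp-5* showed a like split, at 79.2 in space flight, 126 in clinorotation and 134 in hypergravity, against 79 at the operation site and 145 at Tsukuba, and no treated array lay outside the controls. *lbp-3* ran the other way, at 989 in space flight, 814 in clinorotation and 573 in hypergravity, against 1201 at the operation site and 677 at Tsukuba, with hypergravity -0.24 from the nearer control. *lbp-9* lay between the controls on all 3 treated arrays, at 2458 in space flight, 2947 in clinorotation and 2943 in hypergravity, against 2235 at the operation site and 3110.2 at Tsukuba. *lbp-2* read 2239.9 in space flight, 2152 in clinorotation and 1934 in hypergravity, against 1806 at the operation site and 2171 at Tsukuba, with space flight just above both. *lbp-1* read 689 in space flight, 603 in clinorotation and 675 in hypergravity, against 990.4 at the operation site and 677 at Tsukuba, with only the operation site apart from the rest. *lbp-1*, *lbp-2* and *lbp-3* are neighbours in the RefSeq gene table, with no other protein-coding gene between them, yet they did not share a pattern over the 5 arrays. *lbp-8*, whose product carries a lipid signal from the lysosome to the nucleus, was at the floor on all 5 arrays, and *lbp-4* stayed within 0.05 of the nearer control.

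In mitochondrial oxidation, *acdh-1* lay below both controls in space flight and above both in hypergravity. *acdh-1* encodes an acyl-CoA dehydrogenase of the propionate breakdown shunt and is widely used as a reporter of low vitamin B12. It read 61.4 in space flight, 117 in clinorotation and 143 in hypergravity, against 107 at the operation site and 94.4 at Tsukuba. Space flight lay -0.62 from the nearer control, clinorotation 0.13 and hypergravity 0.42 (log2), and the controls lay close together (SD 0.13, n = 2). Without scaling, the distance was -0.0076 in space flight, level with the nearer control, and 0.71 in hypergravity. The differences from the control mean were -0.71 ± 0.33 in space flight and 0.51 ± 0.33 in hypergravity (log2, SE, limma), with unadjusted p of 0.113 and 0.216. *ech-6*, an enoyl-CoA hydratase that also serves this shunt, did not follow it, at 1058 in space flight, 887 in clinorotation and 884 in hypergravity, against 1057 at the operation site and 1019.9 at Tsukuba. Of the other shunt genes, *hphd-1* read 291 in space flight, 237 in clinorotation and 337 in hypergravity, against 335 at the operation site and 283 at Tsukuba. *hach-1* read 314 in space flight, 288 in clinorotation and 363 in hypergravity, against 359.8 at the operation site and 313 at Tsukuba. *alh-8* read 2385 in space flight, 3228 in clinorotation and 3270.3 in hypergravity, against 2671 at the operation site and 3216 at Tsukuba. These 3 were all within 0.26 of the nearer control.

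*acdh-7* lay below both controls in space flight. It read 344 in space flight, 578 in clinorotation and 618 in hypergravity, against 494 at the operation site and 604 at Tsukuba, a distance of -0.52 in space flight. A second probe set gave 320 in space flight, 569 in clinorotation and 661 in hypergravity, against 485 at the operation site and 514 at Tsukuba. Space flight was again lowest there, but clinorotation lay 0.15 and hypergravity 0.36 above both controls. *acdh-8* showed the widest difference between the controls of all members. It read 106 in space flight, was at the floor in clinorotation and read 36.3 in hypergravity, against 104 at the operation site and 31.6 at Tsukuba. *acdh-4* and *acdh-13* were likewise high in space flight and at the operation site. *acdh-4* read 62.4 in space flight, 30.7 in clinorotation and 41.2 in hypergravity, against 63.3 at the operation site and 32.1 at Tsukuba. *acdh-13* read 74.3 in space flight, 49.7 in clinorotation and 50.9 in hypergravity, against 74.2 at the operation site and 44.4 at Tsukuba.

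The other acyl-CoA dehydrogenases lay close to the controls. *acdh-3* read 1218 in space flight, 1019 in clinorotation and 1181 in hypergravity, against 1117 at the operation site and 1039 at Tsukuba. *acdh-9* read 100.3 in space flight, 109 in clinorotation and 101 in hypergravity, against 119 at the operation site and 117 at Tsukuba, where all 3 treated arrays were slightly below both controls. *acdh-11*, which acts in adaptation to heat, read, in hypergravity, 441 against 368 at the operation site and 394 at Tsukuba, and was within 0.0018 of the controls or between them on the other arrays. *acdh-12* lay between the controls in hypergravity and 0.02 or less below them in the other conditions, *acdh-6* was near the floor on all 5 arrays, and *acdh-2* and *acdh-5* were at it. Over the 12 dehydrogenases, 6 lay below both controls in space flight, 5 in clinorotation and 1 in hypergravity, against 3, 2 and 4 above both, beside the same shares of all genes (17.6%, 16.6% and 19.6% below, and 23.4%, 18.1% and 21.5% above).

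The hydratase gene *ech-7* was the member farthest from the controls in clinorotation. It read 180.5 in space flight, 121 in clinorotation and 148 in hypergravity, against 206 at the operation site and 234 at Tsukuba. All 3 treated arrays were below both controls, at distances of -0.77 in clinorotation, -0.48 in hypergravity and -0.19 in space flight, with a control SD of 0.13 (log2, n = 2). The difference from the control mean in clinorotation was -0.86 ± 0.30 (SE, limma; unadjusted p = 0.054, adjusted p = 1.000). Without scaling its distance to the nearer control was -0.52 in clinorotation and -0.17 in hypergravity, but 0.37 in space flight. Summed intestinal markers were 21615 in clinorotation, the lowest of the 5 arrays, with 11 of 16 below both controls; their part in the result was not tested.

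*ech-1.2*, the worm counterpart of the alpha subunit of the mitochondrial trifunctional protein, read 901 in space flight, 931 in clinorotation and 1128 in hypergravity, against 975 at the operation site and 967 at Tsukuba. *ech-4* read 608 in space flight, 594 in clinorotation and 698 in hypergravity, against 610.2 at the operation site and 609.8 at Tsukuba. Hypergravity was highest for both, 0.21 and 0.19 above the nearer control, while the controls differed by 0.01 and 0.0011 (log2, operation site minus Tsukuba). *ech-3* was highest in space flight, at 195 in space flight, 152 in clinorotation and 121 in hypergravity, against 175 at the operation site and 109 at Tsukuba. *ech-2* and *ech-8* stayed within 0.21 of the nearer control. *ech-9* passed the floor in space flight and at the operation site, and *ech-1.1* and *ech-5* were at the floor on all 5 arrays, *ech-1.1* on each of its 3 probe sets.

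*hacd-1*, the only member of its family, encodes the 3-hydroxyacyl-CoA dehydrogenase step. It read 3000.2 in space flight, 1940.0 in clinorotation and 1578 in hypergravity, against 2916 at the operation site and 2375 at Tsukuba. Hypergravity and clinorotation lay below both controls, at -0.59 and -0.29 (log2), and space flight level with the operation site. The difference from the control mean in hypergravity was -0.74 ± 0.20 (SE, limma; unadjusted p = 0.029, adjusted p = 0.949), and hypergravity was below both controls without scaling too, at -0.20.

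The peroxisomal oxidases split by gene. *acox-1.6* was above both controls in hypergravity. It read 138 in space flight, 156 in clinorotation and 264 in hypergravity, against 133 at the operation site and 182 at Tsukuba, a distance of 0.54, while space flight and clinorotation lay between the controls. Without scaling all 3 lay above both, at 0.30 in space flight, 0.17 in clinorotation and 1.04 in hypergravity. *acox-1.1*, a main oxidase of ascaroside shortening, lay on the same side at a distance of 0.11, and read 113.3 in space flight, 111 in clinorotation and 155 in hypergravity, against 144 at the operation site and 122 at Tsukuba. *acox-1.5* had its highest value at the operation site and its lowest in clinorotation, at 171 in space flight, 87.5 in clinorotation and 103 in hypergravity, against 299 at the operation site and 107 at Tsukuba. Clinorotation lay -0.29 from Tsukuba, the nearer control, and this was no longer outside without scaling. *acox-3* read 366 in space flight, 266 in clinorotation and 402 in hypergravity, against 454 at the operation site and 280.2 at Tsukuba, where clinorotation and Tsukuba were low and the other 3 arrays high. *acox-1.2*, a neighbour of *acox-1.1*, was at the floor on 4 arrays and read 27 in hypergravity.

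The lipase genes differed more from Tsukuba than from the operation site in space flight. Of the 8 *lipl* genes, 4 lay below both controls and 1 above in space flight. The shares of all genes were 17.6% below and 23.4% above (29.5% and 36.3% of those above the floor). Without scaling, none of the 4 was below both. The median of the 5 above the floor was -0.70 against Tsukuba and -0.12 against the operation site (log2), where *acox*, *acs* and *lbp* had lower medians. *lipl-7* read 147 in space flight, 184 in clinorotation and 171 in hypergravity, against 209 at the operation site and 238 at Tsukuba. All 3 treated arrays were below both controls, space flight at -0.51, and none was below both without scaling. *lipl-5* read 85.4 in space flight, 143 in clinorotation and 103 in hypergravity, against 117 at the operation site and 231 at Tsukuba, with space flight lowest and Tsukuba far above the rest.

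*lipl-1*, which fasting induces through the transcription factor HLH-30, read 136 in space flight, 105 in clinorotation and 135 in hypergravity, against 147 at the operation site and 218 at Tsukuba. Clinorotation lay -0.49 from the nearer control, and -0.25 from it without scaling. *lipl-2* read 36.2 in space flight, 42.7 in clinorotation and 66.5 in hypergravity, against 38 at the operation site and 114 at Tsukuba, with Tsukuba highest and space flight and the operation site lowest. *lipl-4*, a lysosomal lipase linked to long life in worms without a germ line, was the 1 lipase above both controls in space flight, at 70.0 in space flight, 64 in clinorotation and 52.8 in hypergravity, against 61.4 at the operation site and 47.3 at Tsukuba. *lipl-3*, another target of HLH-30, was at the floor on all 5 arrays, as were *lipl-6* and *lipl-8*. *hlh-30* itself read 404 in space flight, 516 in clinorotation and 387 in hypergravity, against 493 at the operation site and 581 at Tsukuba. *mxl-3*, a repressor of lipase genes in fed worms that was chosen after its values were seen, read 543 in space flight, 1922 in clinorotation and 1622 in hypergravity, against 684 at the operation site and 2149 at Tsukuba, low in space flight and at the operation site and high on the other 3 arrays.

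Of the 5 elongases above the floor, 4 were lower in hypergravity than in either control, against 32.7% of all genes above the floor. These were *elo-1*, *elo-2*, *elo-5* and *elo-6*, while *elo-4* lay between the controls. Without scaling, only *elo-5* and *elo-6* were below both, and *elo-1* and *elo-4* each lay 0.09 (log2) above both. *elo-5* and *elo-6* make monomethyl branched-chain fatty acids, which are needed for growth. *elo-5* read 2019 in space flight, 1957 in clinorotation and 1192 in hypergravity, against 1953 at the operation site and 1915 at Tsukuba. The other 4 arrays were level and hypergravity stood alone, -0.68 from the nearer control (log2; SD of the controls 0.02, n = 2). Its difference from the control mean was -0.70 ± 0.16 (SE, limma), with an unadjusted p of 0.016, the lowest among the members in that comparison, and an adjusted p of 0.949. *elo-6* read 2235 in space flight, 1615 in clinorotation and 1221 in hypergravity, against 2171 at the operation site and 1737 at Tsukuba, with hypergravity lowest at a difference of -0.67 ± 0.22 (SE, limma; unadjusted p = 0.046, adjusted p = 0.949). Both stayed below both controls without scaling, *elo-5* at -0.26 and *elo-6* at -0.08. The probe sets of *elo-5* and *elo-6* are of a kind that can detect more than 1 transcript.

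*elo-2*, which elongates palmitate, read 536 in space flight, 379 in clinorotation and 347 in hypergravity, against 566 at the operation site and 485 at Tsukuba. Hypergravity and clinorotation were both below the controls, at -0.48 and -0.36 (log2), and both were between the controls without scaling. *elo-1*, which acts on precursors of polyunsaturated fatty acids, differed less, at 2347 in space flight, 2143 in clinorotation and 2057 in hypergravity, against 2572 at the operation site and 2208 at Tsukuba. *elo-4* was the elongase that was low in space flight. It read 83.3 in space flight, 216 in clinorotation and 224 in hypergravity, against 124 at the operation site and 302 at Tsukuba, where space flight lay -0.57 from the operation site, the nearer control, and farther from Tsukuba. *elo-9* was near the floor, and *elo-3* and *elo-7* were at it on all 5 arrays, *elo-7* being the neighbour of *elo-1*. The summed signal of the 5 elongases above the floor was 7219.8 in space flight, 6309 in clinorotation and 5041 in hypergravity, against 7386 at the operation site and 6646 at Tsukuba. Neuronal markers were also lower in hypergravity, with 7 of 10 below both controls and a summed signal of 6725, against 8969 at the operation site and 8670.4 at Tsukuba; intestinal markers had 8 of 16 below both, with a median over the 16 of -0.17, and the part of either list in the elongase result was not tested.

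Set side by side, the families differed in their medians against the mean of both controls. In space flight the medians of members above the floor were -0.60 for *lipl* (n = 5), -0.27 for *acs* (n = 16), -0.18 for *lbp* (n = 8), -0.12 for *acox* (n = 4) and -0.10 for *acdh* (n = 10), while *elo* (0.03, n = 5) and *ech* (-0.0018, n = 7) were level. In clinorotation they were -0.34 for *acox*, -0.28 for *lipl*, -0.15 for *elo*, -0.10 for *acdh* and -0.06 for *ech*, with *acs* at 0.02 and *lbp* at 0.04. In hypergravity they were -0.59 for *elo*, -0.38 for *lipl*, -0.20 for *acs*, -0.20 for *ech* and -0.03 for *lbp*, with *acox* at 0.20 and *acdh* at -0.0048. The elongase median in hypergravity was negative against each control (-0.71 against the operation site, -0.48 against Tsukuba) and without scaling (-0.14). Without scaling, the only other negative family medians were those of *hacd* (n = 1), at -0.17 in clinorotation and -0.33 in hypergravity, and of *acox* in clinorotation, at -0.01. The order of the families depended on the control. Against Tsukuba alone, *lipl* had the lowest median in all 3 conditions, at -0.70 in space flight, -0.69 in clinorotation and -0.69 in hypergravity. Against the operation site alone, *lipl* was at -0.12, 0.06 and -0.18 in the same order. The *acox* median was -0.33 against the operation site and 0.14 against Tsukuba in space flight. It was -0.57 and -0.18 in clinorotation and -0.03 and 0.43 in hypergravity. No difference between families was tested.

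**Figure D3:**
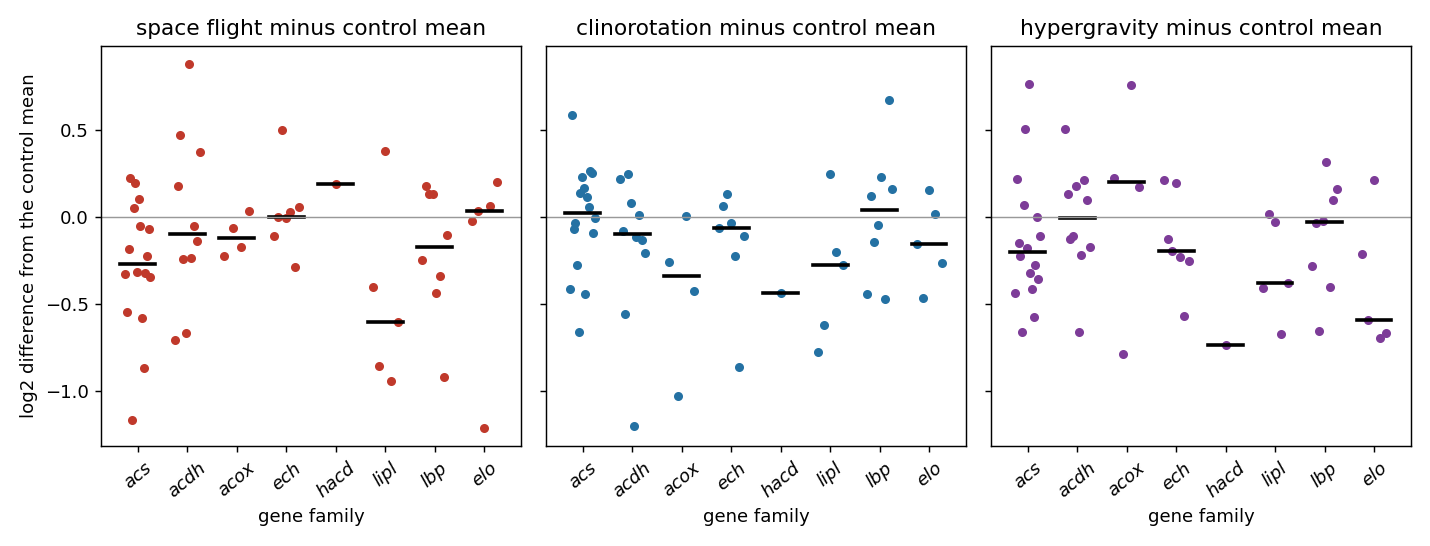
Log2 difference of each member above the floor from the control mean (y axis), by gene family (x axis), for space flight, clinorotation and hypergravity. Each point is 1 gene and black bars are family medians; against this mean the lowest medians among families with over 1 member are *lipl* in space flight, *acox* in clinorotation and *elo* in hypergravity, which does not hold in every condition against each control alone.

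Some members lay on the same side of both controls on more than 1 treated array, though the comparisons share their controls. Below both controls on all 3 were 7 members: *acs-1*, *acs-5*, *acdh-9*, *ech-7*, *lipl-1*, *lipl-7* and *lbp-6*. This was 7 of 76, against 4.54% of all genes and 7.38% of genes above the floor. All 7 are among the 56 members above the floor. No member lay above both on all 3, against 5.56% of all genes and 9.36% of those above the floor. Without scaling, none of the 7 was below both controls on all 3 treated arrays, and *acdh-9* and *lipl-7* lay above both on all 3. By at least 1.2-fold, *acs-5*, *acs-17* and *lipl-7* were below in space flight and in hypergravity, and *ech-7*, *hacd-1* and *elo-2* in clinorotation and in hypergravity. Without scaling, *acs-17*, *ech-7* and *hacd-1* were still below both controls on both arrays, and *acs-5*, *lipl-7* and *elo-2* were not. Inside the controls or at the floor in every condition were 22 members, 14 of them at the floor on all 5 arrays. The shares of all genes with these 1.2-fold pairs, or outside in no condition, were not counted, so these counts have no background.

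Several members differed at least 2-fold between the controls. The distance to the nearer control is 0 between the controls, so its size is not comparable with the difference between them. In space flight, 5 members differed at least 2-fold from Tsukuba alone (1077 of all genes) and 1 from the operation site alone (190 of all genes). Of the 76 members, 3 were at least 2-fold higher at the operation site than at Tsukuba and 4 at least 2-fold lower, against 2.79% and 2.43% of all genes. Higher were *acdh-8* (by 1.72, log2), *acox-1.5* (1.48) and *acs-7* (1.26), and lower were *lipl-2* (-1.58), *lbp-7* (-1.34), *acs-11* (-1.296) and *elo-4* (-1.28). The median over the 56 members above the floor was 0.06, against 0.03 for all genes above it. For 20 members, the space flight and operation-site arrays both read above the other 3 arrays (26.3%, against 15.8% of all genes), and for 11 both read below them (14.5%, against 12.3%). Genes at the floor on all 5 arrays, 14 of the 76 members and 5679 of the 17118 genes, cannot show this split. Its share among genes above the floor was not counted. Sperm markers showed the same split, with 24 of 24 higher at the operation site than at Tsukuba, and their part in the members' values was not tested.

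**Figure D4:**
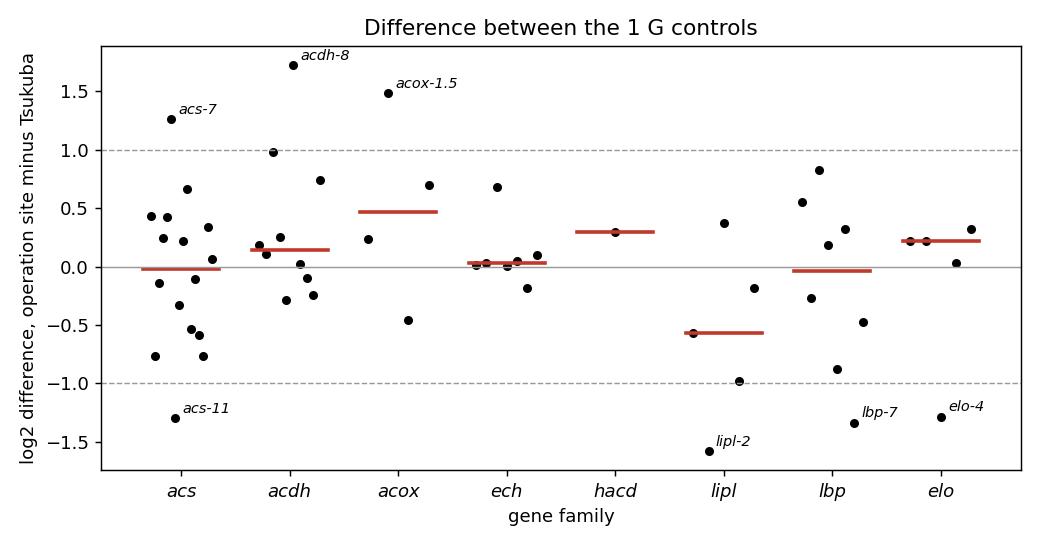
Log2 difference between the controls, operation site minus Tsukuba (y axis), for each member above the floor, by gene family (x axis). Each point is 1 gene, red bars are family medians and dashed lines mark 2-fold; 3 named genes lie above the upper line and 4 below the lower one.

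Beyond the 8 families, 58 other genes of fat metabolism were measured, 55 of them above the floor, and none was 2-fold outside both controls or reached an adjusted p below 0.05 with limma. In space flight 28 lay below both controls (17.6% of all genes, 29.5% of those above the floor) and 9 above (23.4% and 36.3%). The median of the 55 above the floor was -0.12 (log2). The farthest below were *fasn-1*, the fatty acid synthase (322 against 466 at the operation site and 610.1 at Tsukuba), *dgat-2*, which makes triglyceride (348 against 637 at the operation site and 482 at Tsukuba), the carnitine palmitoyltransferase gene *cpt-1* (392.01 against 537 at the operation site and 560.1 at Tsukuba) and its relative *cpt-4* (55.7 against 72.7 at the operation site and 112.8 at Tsukuba). None of these 4 was below both without scaling, and *cpt-1* then lay above. The farthest above were *sbp-1*, the worm SREBP (383 against 327 at the operation site and 273 at Tsukuba), and *fat-2*, a desaturase (4038 against 3496 at the operation site and 3612 at Tsukuba). The other two were *acbp-1*, an acyl-CoA-binding protein, and *art-1*, which encodes a reductase of the elongation cycle, both within 0.11 of the nearer control.

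In hypergravity 21 of the 58 exceeded both controls (21.5% of all genes, 33.2% of those above the floor) and 17 lay under both (19.6% and 32.7%). The median of the 55 above the floor was 0.02 (log2). Farthest above was *cpt-4*, which read 55.7 in space flight, 123 in clinorotation and 210.3 in hypergravity, against 72.7 at the operation site and 112.8 at Tsukuba. Its relative *cpt-6* read 30.5 in space flight, 72.2 in clinorotation and 79.6 in hypergravity, against 33 at the operation site and 51.8 at Tsukuba. The triglyceride lipase gene *atgl-1* read 238 in space flight, 313 in clinorotation and 455 in hypergravity, against 214 at the operation site and 309 at Tsukuba. *cpt-1* was the fourth, at 718 against 537 at the operation site and 560.1 at Tsukuba. *cpt-3* was not above, at 24.9, the floor, against 44.1 at the operation site and 32.3 at Tsukuba, *cpt-2* was level with the operation site, and *cpt-5* lay between the controls. Farthest below were *dgat-2* (299 against 637 at the operation site and 482 at Tsukuba), *sbp-1* (177 against 327 at the operation site and 273 at Tsukuba), *hlh-11*, a repressor of fat breakdown (439.7 against 629.8 at the operation site and 620.3 at Tsukuba), and the nuclear receptor gene *daf-12* (480.4 against 638 at the operation site and 697 at Tsukuba). Without scaling, *dgat-2*, *sbp-1* and *daf-12* stayed below both controls, with *daf-12* at a distance of -0.0067, and *hlh-11* lay between them. The desaturase gene *fat-6* read 2035 in space flight, 4449.6 in clinorotation and 4802 in hypergravity, against 2343 at the operation site and 4524 at Tsukuba.

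In clinorotation 16 of the 58 exceeded both controls (18.1% of all genes, 28.4% of those above the floor) and 19 lay under both (16.6% and 27.7%). The median of the 55 above the floor was -0.0028 (log2). *pmp-2*, a peroxisomal ABC transporter, was farthest above, at 337 in space flight, 548 in clinorotation and 293 in hypergravity, against 359 at the operation site and 379 at Tsukuba, followed by *cpt-6*, the lipid droplet protein gene *plin-1* (1876 against 1358 at the operation site and 1548 at Tsukuba) and *mce-1* of propionate breakdown (399 against 254 at the operation site and 338 at Tsukuba). *dgat-2* was farthest below, at 347 against 637 at the operation site and 482 at Tsukuba, and was below both controls on all 3 treated arrays. The thiolase gene *acaa-2* (513 against 702 at the operation site and 597 at Tsukuba), *hphd-1* and *cpt-5* followed, and these 3 were no longer outside without scaling.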

How the data were processed

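Total RNA from each group was labelled as biotin cRNA and hybridised to 1 Affymetrix worm array, per the labels' protocols. The deposited values are linear signal intensities, 1 per probe set and array, and for the authors' probe summarising software the sources used here give no name. Of the 22548 probe sets, 20766 had 1 gene symbol in the platform annotation, 887 had several and 895 were not listed. The intensities were quantile-scaled over the 5 arrays on the log2 scale, a floor was set at the 40th percentile (24.9), and the brightest probe set of each gene was kept. All 76 member symbols matched the RefSeq gene table.

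Each treated array was compared with both controls. A gene lay outside when it exceeded both controls or was under both, and the distance to the nearer control is 0 between them. limma 3.58.1 in R 4.3.3 (lmFit, eBayes with a trend) was fitted to the 10075 genes above the floor, with Benjamini-Hochberg adjustment over all of them. Its single residual degree of freedom is the difference between the controls, which come from different sites, and the fit assumes that treated arrays vary as they do. The script was tested on simulated data. The precision is limited by the 5 arrays.

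The members and gene lists were chosen with earlier results of these data known. Named with distances are, per condition and direction, up to 5 members farthest from the nearer control, the brightest of each family, those with the widest difference between controls, and those whose probe sets disagree. Other members are given mainly by their signals. Up to 4 other fat metabolism genes per condition and direction are named, and the propionate shunt genes, the cpt genes, fat-6, hlh-30 and mxl-3 were added after their values were seen. Alternatives were other scalings, floors, an offset, the mean of probe sets, leaving out probe sets that may bind several transcripts, leaving out each control, limma without the trend and limma without the filter. Promoter and protein sequences were not analysed here.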

Additional observations from a re-analysis of the deposited data

How the results depend on the processing

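The small size of the distances and the number of arrays limit what these results can carry. Without scaling, the median difference of the members was 0.49 in space flight, 0.23 in clinorotation and 0.21 in hypergravity, 2 members were 2-fold outside both controls in hypergravity, and 6, 0 and 6 members were 1.5-fold outside in space flight, clinorotation and hypergravity (3733, 543 and 1845 of all genes). The 6 in space flight were all above both controls and none was among the 3 below them with scaling, and the 6 in hypergravity were all above too. Of 77 named distances, 39 then kept their side, 19 were no longer outside and 19 lay on the opposite side. Scaling by the trimmed mean gave medians of -0.11 in space flight and -0.21 in hypergravity. With the floor at the 20th percentile the medians were -0.060 in space flight and -0.10 in clinorotation, 1 member was 2-fold outside in hypergravity, and 5, 2 and 6 were 1.5-fold outside. The 1.5-fold counts of all genes also rose with this floor, from 530 to 1190 in space flight and from 242 to 962 in clinorotation. With the floor at the 60th percentile the medians were -0.14 in space flight and -0.21 in hypergravity. With an offset in place of the floor, 2 members were 1.5-fold outside in clinorotation, beside 336 of all genes. Without probe sets that may bind several transcripts the medians were -0.20 in space flight and -0.041 in clinorotation. limma without the filter called 191 genes in space flight, 151 in clinorotation and 267 in hypergravity, of which 180, 147 and 258 had both controls at the floor and so no spread between them. The only member among those calls was *acox-1.2*, in hypergravity, and both its controls were at the floor. Leaving out the operation-site or the Tsukuba control gave 5 or 1 members 2-fold outside in space flight, 2 or 5 in clinorotation and 1 or 4 in hypergravity. Of all 17118 genes, 1077 or 190 were then 2-fold outside in space flight and 56 or 922 in clinorotation. For hypergravity at 2-fold, the counts of all genes under these alternatives are not given here. At 1.5-fold, leaving out each control in the same order gave 22 members (7 above, 15 below) or 5 (1 and 4) in space flight, 4 (0 and 4) or 19 (6 and 13) in clinorotation and 11 (3 and 8) or 21 (8 and 13) in hypergravity. Over all 17118 genes the 1.5-fold counts were 2988 or 1157, 647 or 2439 and 1674 or 2988. The medians then ranged from -0.11 to -0.10 in space flight, from -0.10 to -0.07 in clinorotation and from -0.18 to -0.13 in hypergravity. The causes were not tested. No paired analysis was possible because each treated group has 1 array and the labels give no replicate numbers that could pair it with a control.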
